A study of Mus musculus with 18 samples.

Results

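The complement genes described here are C3, C4b, C2, Cfb, Cfi, C1s1, C1ra, Cd55 and C5ar1, 9 of the 55401 genes counted. They were chosen by name, and each was found by its Ensembl identifier through the GENCODE mouse symbols. RNA was measured in 18 libraries of primary mouse cholangiocytes, the epithelial cells of the bile ducts, taken from wild-type (WT) mice or from a mouse model of polycystic liver disease (PLD), where ducts widen into cysts. The 6 groups held 3 libraries each: PLD mice given CPTH6, PLD mice given ML324 (the titles of both give 3 months), untreated PLD mice 2 months after tamoxifen, WT mice at 2 months, PLD mice at 1 month and WT mice at 1 month. CPTH6 is known to block the acetylation of histones by Kat2a and Kat2b, while ML324 blocks histone demethylation by KDM4 enzymes. All cells came from perfused livers whose minced ducts were captured on beads with an antibody to EpCAM. The labels name no inactivated gene, no driver of the recombinase, no dose and no age, and do not say whether replicates are separate animals, so p-values measure the spread between these libraries, which may be technical. No untreated PLD library at 3 months was analysed here, so compound, month and library set cannot be told apart.

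Complement is a cascade of secreted proteases that tags surfaces with fragments of C3 and C4. In the classical pathway, C1q recruits the proteases C1r and C1s, which cut C4 and C2 to form a C3 convertase, while in the alternative pathway C3 and factor B form a second one. Factor I and the membrane protein CD55 limit these convertases, and the fragment C5a acts through the receptor C5ar1 on myeloid cells. The liver makes much of the circulating complement, mainly in hepatocytes.

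Library totals ran from 16345740 to 29277311 counts, and each member held at least 53 counts in every library. Between 22780 and 40039 genes had a count, and the highest number, in WT replicate 1 at 2 months, stood apart. Lists of 10 markers were summed for each cell type a duct preparation can hold. The cholangiocyte sum was 17997 to 21936 counts scaled to library size (CPM) after CPTH6, 15392 to 18785 after ML324, 12245 to 14096 in PLD and 2267 to 4512 in WT at 2 months, and 8095 to 11075 in PLD and 3212 to 8890 in WT at 1 month. No defining marker of cholangiocytes was at 0 in any library, so the markers of the labelled cell type were detected throughout. The stellate cell and fibroblast sum was 338 to 416 CPM after CPTH6, 273 to 906 after ML324, 3221 to 7370 in PLD and 5620 to 12576 in WT at 2 months, and 9930 to 12864 in PLD at 1 month. In WT at 1 month it was 2388 CPM in replicate 3, against 13288 and 15265 CPM in the others, and the same library had the highest cholangiocyte sum of its group. The endothelial sum was 156 to 265 CPM after CPTH6, 109 to 559 after ML324, 456 to 1197 in PLD and 6182 to 10982 in WT at 2 months, and 1994 to 3861 in PLD and 1840 to 4792 in WT at 1 month. The stellate cell and fibroblast sum and the endothelial sum were each above the cholangiocyte sum in every WT library at 2 months. At 1 month the stellate cell and fibroblast sum was above it in WT replicates 1 and 2 and PLD replicate 3. Sums of different marker lists do not give shares of cells.

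Of the 9 genes, 4 lie on mouse chromosome 17. C3 (ENSMUSG00000024164.15) spans chr17:57203970-57228136 of mm10, C4b (ENSMUSG00000073418.4) chr17:34728380-34743882, Cfb (ENSMUSG00000090231.10) chr17:34856374-34862518 and C2 (ENSMUSG00000024371.14) chr17:34862604-34898265, all on the minus strand. C4b, Cfb and C2 fall within 169.9 kb of each other, and C2 ends 86 bp before Cfb begins in the direction of transcription. C1ra (ENSMUSG00000055172.10, chr6:124512405-124523443, plus strand) and C1s1 (ENSMUSG00000038521.17, chr6:124530345-124542359, minus strand) face each other across 6902 bp. Cfi (ENSMUSG00000058952.12) lies at chr3:129835884-129875332 on the plus strand. Cd55 (ENSMUSG00000026399.12) lies at chr1:130439027-130462744 and C5ar1 (ENSMUSG00000049130.6) at chr7:16246743-16259540, both on the minus strand. Counts cover the whole set of exons of each gene, untranslated regions included.

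The counts of Cfb and C2 rest on part of their exons. The annotation the authors counted with also holds the locus Gm20547, a transcript on the same strand that runs from C2 into Cfb and shares 2246 of the 2825 exonic bases of Cfb (79.5%). Of the 3872 exonic bases of C2, 1817 (46.9%) are shared, 1656 of them with Gm20547 and the rest with Zbtb12 on the opposite strand. Fragments lying wholly in shared exons are assigned to no gene under the authors' setting. Gm20547 had 0 counts in 16 libraries and 1 count in PLD replicate 2 at 2 months and in ML324 replicate 2. Levels of Cfb and C2 are therefore too low by an amount the counts do not give, while the same exons were counted in every library. C1s1 shares 576 of 3129 exonic bases (18.4%) with the antisense gene Gm16567 and Cd55 102 of 4853 (2.10%) with Gm16083, and counting without strand left such fragments out too. C3, C4b, C1ra, Cfi and C5ar1 share none. C4b, C1s1, C1ra and Cd55 have near-identical copies (C4a, C1s2, C1rb and Cd55b), and reads that fit both copies were not counted, so the split between copies is uncertain.

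**Figure D1:**
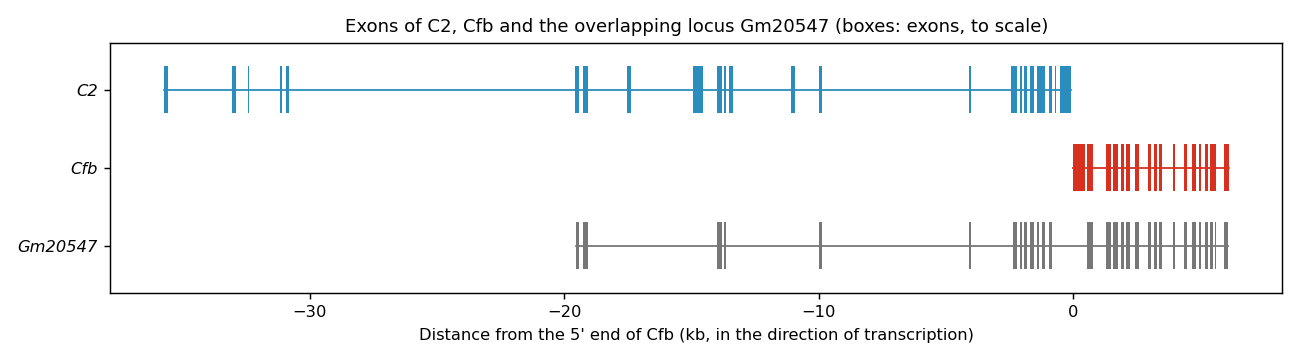
Exons of C2, Cfb and the locus Gm20547 (rows), drawn to scale against the distance in kb from the 5' end of Cfb in the direction of transcription. Boxes are exons of the authors' annotation; Gm20547 covers 79.5% of the exonic bases of Cfb, and the 579 bases it leaves are the ones whose fragments are counted for Cfb alone.

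RefSeq promoter windows (GRCm38.p6, 250 bases before to 50 after the annotated start) were found for 5 of the 9 members: C3, C1ra, C1s1, Cd55 and C5ar1. Those of C1ra and C1s1 are shown because these genes had the most alike pattern of any pair of members, that of Cd55 because its difference between genotypes changed with time, and that of C3 because it was the most abundant member. C1s1 has a pair of entries, of which the first is printed. Capitals mark matches, on either strand, to the C/EBP motif TTGCNNAA, the STAT motif TTCNNNGAA, the TATA box (TATAAA) and the GC box, whose letters are GGGCGG. The CCAAT box, the AP-1 motif TGANTCA and the NF-kB motif were also searched, and no match overlapped another. All are written 5' to 3' on the gene's strand.
C1ra, chr6:124512371-124512670, plus strand: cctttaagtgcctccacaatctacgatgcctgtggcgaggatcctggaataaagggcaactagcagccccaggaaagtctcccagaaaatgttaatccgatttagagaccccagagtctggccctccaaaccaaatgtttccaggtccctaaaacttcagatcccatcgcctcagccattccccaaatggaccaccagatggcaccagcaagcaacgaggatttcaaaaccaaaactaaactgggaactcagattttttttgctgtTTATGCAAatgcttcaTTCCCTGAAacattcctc
C1s1, chr6:124542310-124542609, minus strand: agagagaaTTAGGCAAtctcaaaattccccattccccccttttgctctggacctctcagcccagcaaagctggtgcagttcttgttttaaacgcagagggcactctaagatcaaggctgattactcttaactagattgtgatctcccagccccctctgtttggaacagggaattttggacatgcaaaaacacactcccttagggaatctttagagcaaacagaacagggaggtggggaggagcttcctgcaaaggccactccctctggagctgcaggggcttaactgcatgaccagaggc
Cd55, chr1:130462695-130462994, minus strand: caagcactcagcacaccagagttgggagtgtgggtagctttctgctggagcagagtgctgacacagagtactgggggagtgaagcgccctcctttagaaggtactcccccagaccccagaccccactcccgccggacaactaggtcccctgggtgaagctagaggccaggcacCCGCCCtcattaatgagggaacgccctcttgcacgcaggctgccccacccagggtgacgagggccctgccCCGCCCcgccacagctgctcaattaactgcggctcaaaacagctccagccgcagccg
C3, chr17:57228087-57228386, minus strand: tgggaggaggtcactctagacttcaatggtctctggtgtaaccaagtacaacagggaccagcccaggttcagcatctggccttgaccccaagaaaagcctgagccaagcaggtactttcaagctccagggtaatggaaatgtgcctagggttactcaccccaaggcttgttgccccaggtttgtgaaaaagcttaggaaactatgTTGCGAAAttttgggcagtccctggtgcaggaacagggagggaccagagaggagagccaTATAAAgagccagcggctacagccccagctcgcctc
The C3 window held a C/EBP match TTGCGAAA at position -45 from the annotated start and TATAAA at position 15. The C1ra window held a C/EBP match on the reverse strand (TTATGCAA) and a STAT match (TTCCCTGAA), at positions 17 and 33. The C1s1 window held a reverse-strand C/EBP match (TTAGGCAA) at position -242, and the Cd55 window the GC box on the reverse strand at positions -77 and -7. In the C5ar1 window, which is not printed, CCAAT matched on the reverse strand at position -158. Of 32851 mouse promoter windows of this length, 10.8% held the C/EBP motif, 8.30% the STAT motif, 13.6% TATAAA, 35.7% the GC box, 37.4% CCAAT, 7.81% the AP-1 motif and 8.46% the NF-kB motif. A match describes letters only and no binding was measured.

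The abundance of the members was compared per kb of exon not shared with another gene, since longer genes collect more counts. Taking the mean of the 6 group means, C3 led with 371 CPM per kb, followed by C4b with 136, C1s1 with 58.7 and C1ra with 34.9. Cfi followed with 24.0 CPM per kb, Cd55 with 18.4, C2 with 17.8, Cfb with 15.4 and C5ar1 with 11.9. C3, the component common to all pathways, was the most abundant member on this scale in each of the 6 groups, and C4b the second. The lowest member on this scale differed between groups: C1ra after CPTH6 (5.61 CPM per kb) and after ML324 (7.91), Cd55 in PLD at 2 months (8.43), Cfb in WT at 2 months (5.13) and at 1 month (5.46), and C5ar1 in PLD at 1 month (6.86). Per kb of all exons, Cfb was instead the lowest member in each of the 6 groups. It then ran from 1.05 CPM per kb in WT at 2 months to 5.91 after ML324. The place of Cfb thus depends on the length used, and that of C2 carries the same doubt.

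**Figure D2:**
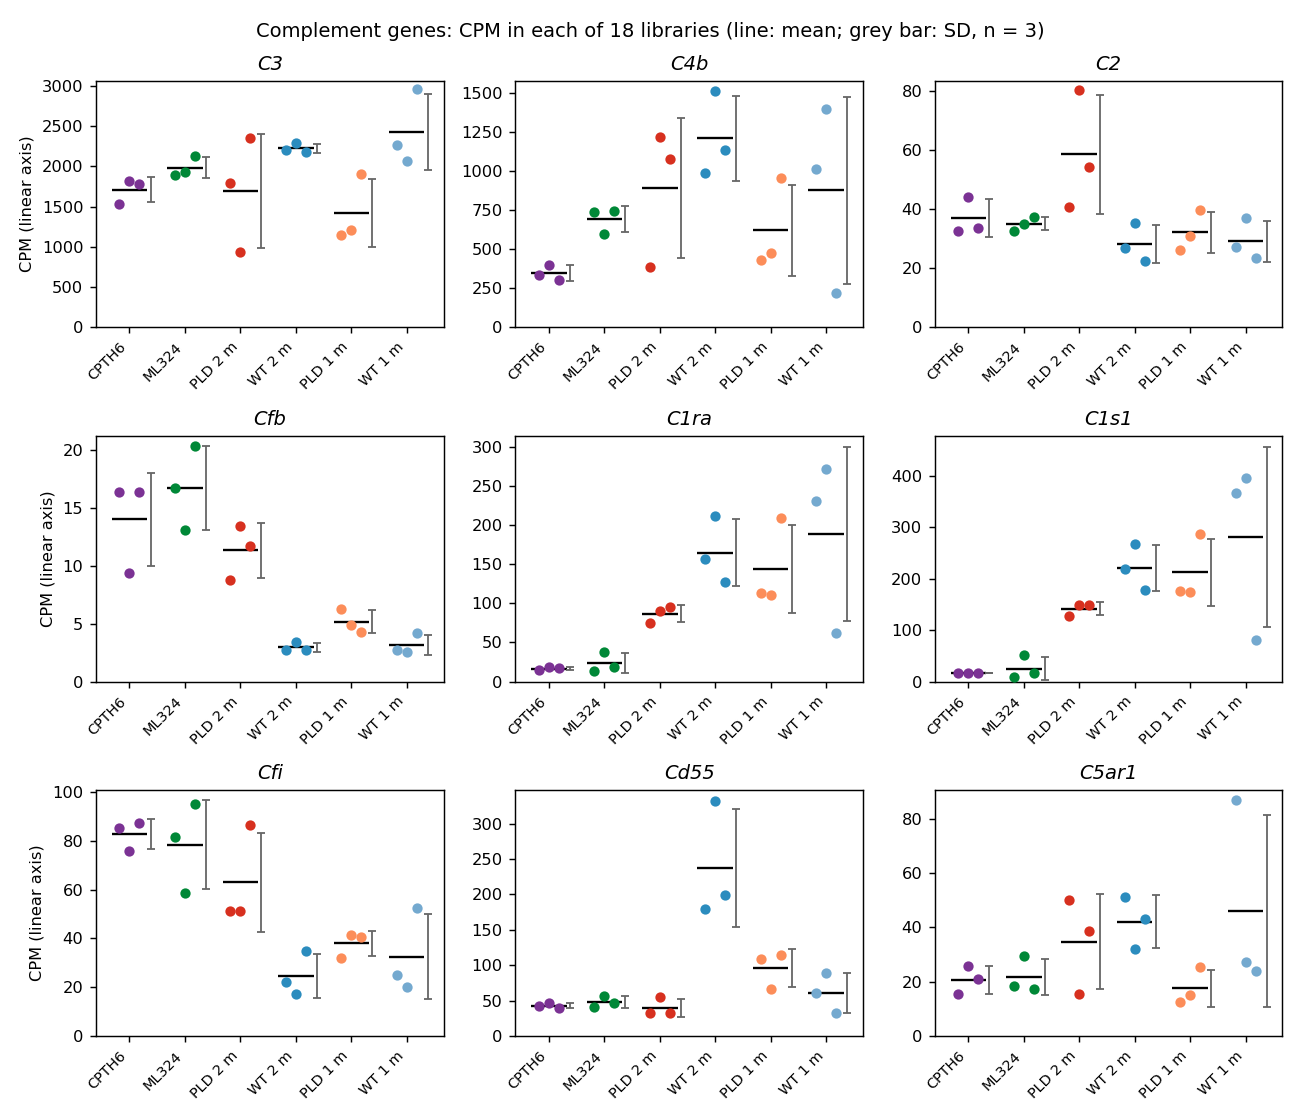
CPM of the 9 complement genes (linear axes from 0) in the 18 libraries, by group. Points are libraries, black lines the mean of 3 and grey bars the SD; Cfb runs from 2.57 to 4.19 CPM over all WT libraries and from 8.78 to 20.3 CPM over PLD at 2 months and both treated groups.

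Within genes, C3 varied least over the 18 libraries, from 934 to 2961 CPM (3.17-fold), and C1s1 most, from 8.31 to 397 CPM (47.8-fold). Between these, C2 spanned 3.57-fold, Cfi 5.46-fold, C4b 6.85-fold, C5ar1 6.90-fold, Cfb 7.92-fold, Cd55 10.3-fold and C1ra 20.1-fold. C1ra and C1s1 had the same order of group means: WT at 1 month, WT at 2 months, PLD at 1 month, PLD at 2 months, ML324, then CPTH6. Neighbours in that order overlapped except PLD at 1 month with PLD at 2 months and PLD at 2 months with ML324. Cfb and Cfi were highest in the treated groups, then in PLD at 2 months and PLD at 1 month, and lowest in WT. For Cfb, PLD at 1 month overlapped neither PLD at 2 months nor WT at 1 month, and for Cfi the only gap lay between PLD at 2 months and PLD at 1 month. Cd55 was highest in WT at 2 months, above every other library, and the remaining neighbours in its order overlapped. C2 was highest in PLD at 2 months, and C5ar1 highest in WT at 1 month, with overlap between all neighbours for both. For C4b the only neighbours without overlap were PLD at 1 month and CPTH6, the lowest group. For C3, WT at 1 and 2 months stood first and overlapped, ML324 lay below WT at 2 months and above CPTH6 with no overlap, and CPTH6, PLD at 2 months and PLD at 1 month followed with overlap.

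In PLD ducts at 2 months, the proteases of both C3 convertases and factor I were higher than in WT, and the inhibitor Cd55 was lower. Cfb was 3.84-fold and C2 2.10-fold higher, Cfi 2.59-fold higher, and Cd55 was at 0.170 of its WT level. C3 and C4b, the substrates, and the C1 proteases did not pass the test. Of the 9 members, 3 were called higher and 1 lower by edgeR at an adjusted p under 0.05, where 40.0% of all 17749 genes tested were called, 19.7% higher and 20.3% lower. The median log2 fold change of the members was -0.37, against -0.03 over all genes tested. At a background of 40.0%, 4 of 9 calls is not a result about complement as a list, and the values of single members follow.

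Cfb, which encodes factor B, the protease of the alternative convertase, had 8.78, 13.5 and 11.7 CPM in PLD at 2 months, against 2.77, 3.41 and 2.73 CPM in WT. Every PLD library was above every WT library, and the difference was a log2 fold change of 1.94 ± 0.26 (SE, n = 3 libraries per group, adjusted p = 0.000329). C2, the protease of the classical convertase, had 40.8, 80.3 and 54.3 CPM in PLD and 26.6, 35.2 and 22.5 CPM in WT, again without overlap, with PLD replicate 2 highest (log2 fold change 1.07 ± 0.27, adjusted p = 0.0105). Cfi, which encodes factor I, the protease that inactivates C3b and C4b, had 51.4, 51.1 and 86.3 CPM in PLD and 21.99, 17.4 and 34.7 CPM in WT. The groups did not overlap, and PLD replicate 3 stood above the other PLD libraries (log2 fold change 1.37 ± 0.37, adjusted p = 0.0144). The Cfi call did not hold without PLD replicate 3, WT replicate 1 or WT replicate 2, with adjusted p = 0.0583, 0.0522 and 0.0607 and log2 fold changes of 1.10, 1.29 and 1.19. Of the 10 cholangiocyte markers, 8 were called higher in PLD at 2 months, 12245 to 14096 CPM in sum, against 2267 to 4512 CPM in WT. Per 1000 CPM of those markers, Cfb was 0.623 to 1.10 CPM in PLD and 0.605 to 1.51 CPM in WT, which overlap, and Cfi was 3.65 to 6.40 CPM in PLD and 6.66 to 7.68 CPM in WT, with PLD below WT. C2 was not set against these markers, and the same limit holds for it. Hepatocyte marker sums were also higher, 2482 to 5469 CPM in PLD and 659 to 995 CPM in WT, with 4 of 10 markers called higher (Alb, Ttr, Apoa1 and Cyp2e1) and 3 lower (Ahsg, Cps1 and Hpd), and their part in these differences was not tested. In such bulk preparations, a change in the number of cells of one type and a change in RNA per cell cannot be told apart.

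Cd55, a membrane protein that speeds the decay of both convertases, had 33.0, 54.9 and 32.3 CPM in PLD at 2 months, against 180.1, 332 and 199.8 CPM in WT. The lowest WT library was above every PLD library, and the log2 fold change was -2.56 ± 0.40 (adjusted p = 0.000818). All 10 endothelial markers were called lower in the same comparison, with sums of 456 to 1197 CPM in PLD and 6182 to 10982 CPM in WT. Per 1000 CPM of endothelial markers, Cd55 was higher in PLD (45.9 to 70.9 CPM) than in WT (28.8 to 32.3 CPM), and the part of these cells in the Cd55 difference was not tested.

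Among the members that did not pass, C1ra had 74.5, 90.5 and 94.8 CPM in PLD and 156, 212 and 127 CPM in WT at 2 months (log2 fold change -0.91 ± 0.45, adjusted p = 0.129). C1s1 had 128, 149 and 149 CPM in PLD and 219, 267 and 178 CPM in WT (-0.63 ± 0.46, adjusted p = 0.294). For both C1 proteases every PLD library was below every WT library, and of the 10 stellate cell and fibroblast markers 4 fell. When only the 6 libraries compared were fitted, both were called (adjusted p = 0.00829 for C1ra and 0.0177 for C1s1). C3 had 1799, 934 and 2349 CPM in PLD and 2209, 2289.6 and 2178 CPM in WT, with PLD replicate 2 lowest and the groups overlapping (-0.37 ± 0.32, adjusted p = 0.378). C4b, the component cut by C1s, had 383, 1216 and 1076 CPM in PLD and 983, 1509 and 1131 CPM in WT (-0.43 ± 0.60, adjusted p = 0.601). C5ar1 had 49.9, 15.7 and 38.6 CPM in PLD and 51.3, 32.1 and 42.9 CPM in WT (-0.26 ± 0.53, adjusted p = 0.726). Both C4b and C5ar1 overlapped between the genotypes, with PLD replicate 1 lowest for C4b and PLD replicate 2 lowest for C5ar1.

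**Figure D3:**
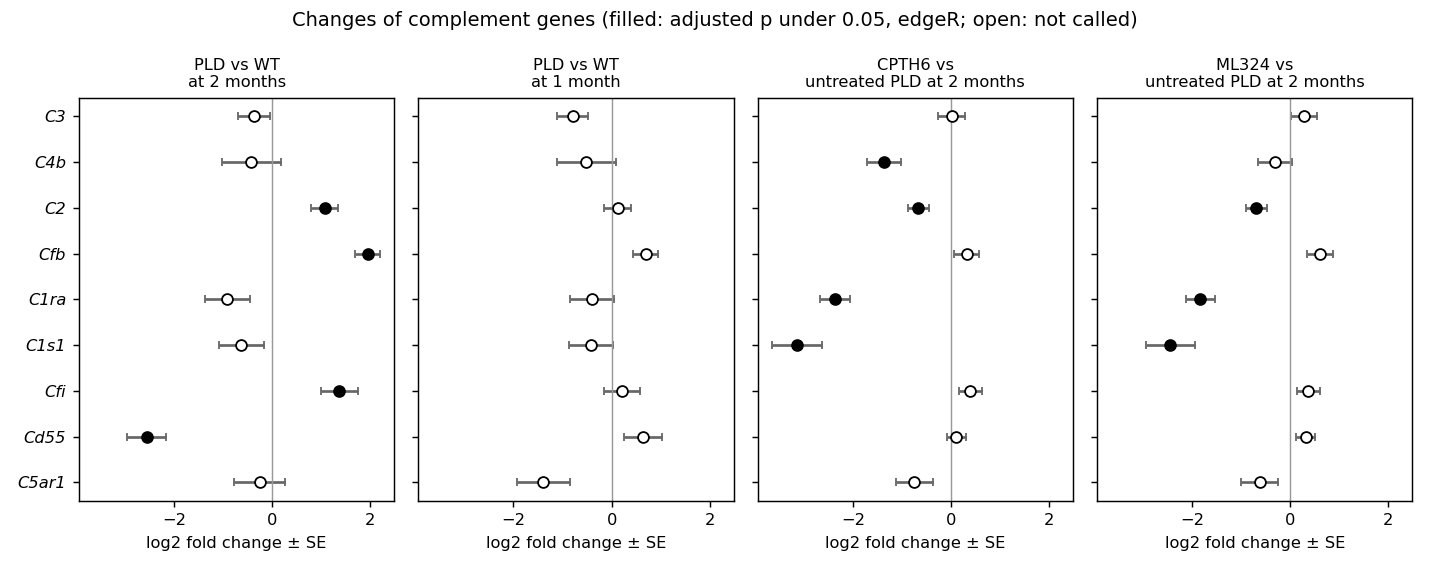
Log2 fold change ± SE (x axis) of each complement gene (rows) in 4 comparisons (panels), positive where the first-named group is higher; filled points have an adjusted p under 0.05 by edgeR. Cfb, C2 and Cfi lie to the right and Cd55 to the left for PLD at 2 months, where Cd55 is at -2.56, and C1ra and C1s1 lie to the left for both compounds.

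Of 46 other complement genes, 39 were tested in the untreated libraries. At 2 months 2 were called higher in PLD and 15 lower, where 19.7% of all genes were called higher and 20.3% lower, with a median log2 fold change of -0.63. With 40.0% of all genes called in either direction, 17 of 39 is no more than a description of the list. Membrane regulators were called lower in 4 of 6 cases and higher in 1, terminal pathway genes lower in 4 of 7, receptors lower in 3 of 7, recognition molecules lower in 2 of 7, proteases lower in 1 of 4, and soluble regulators higher in 1 and lower in 1 of 7. Cd59a, which blocks the membrane attack complex, averaged 20.7 ± 4.45 CPM in PLD and 149 ± 26.1 CPM in WT (log2 fold change -2.83 ± 0.25, adjusted p = 7.3e-05). C5ar2, the second C5a receptor, averaged 2.90 ± 0.491 CPM in PLD and 21.7 ± 7.25 CPM in WT (-2.89 ± 0.35). The collectin Colec10 averaged 8.47 ± 1.66 CPM in PLD and 95.9 ± 54.4 CPM in WT (-3.49 ± 0.61), and ficolin A (Fcna) 2.38 ± 0.641 and 38.6 ± 22.1 CPM (-4.005 ± 0.68). Hc, which encodes C5, was called lower (-3.56 ± 0.59), as was vitronectin, Vtn (-1.64 ± 0.33). For all 6 of these genes, named for their small adjusted p, every PLD library was below every WT library. Of the 46 listed genes 21 lay below WT in this way and 2 above, and the share over all genes is not given here. The 2 genes called higher, named here after their values were seen, were clusterin (Clu), 8347 ± 2131 CPM in PLD and 2825 ± 464 CPM in WT (1.58 ± 0.38), and Susd4 (0.68 ± 0.22). The C1q chains, which macrophages are known to make, had log2 fold changes of 0.01 (C1qa), -0.09 (C1qb) and -0.20 (C1qc) and were not called. Of the 10 macrophage markers 4 were called lower and 1 higher, with a median log2 fold change of -1.48. Their sums were 796 to 1410 CPM in PLD and 1257 to 1370 CPM in WT. The copies C4a (-0.10 ± 0.28) and C1s2 (-0.63 ± 0.72) were not called, and C1rb and Cd55b were too low to test.

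**Figure D4:**
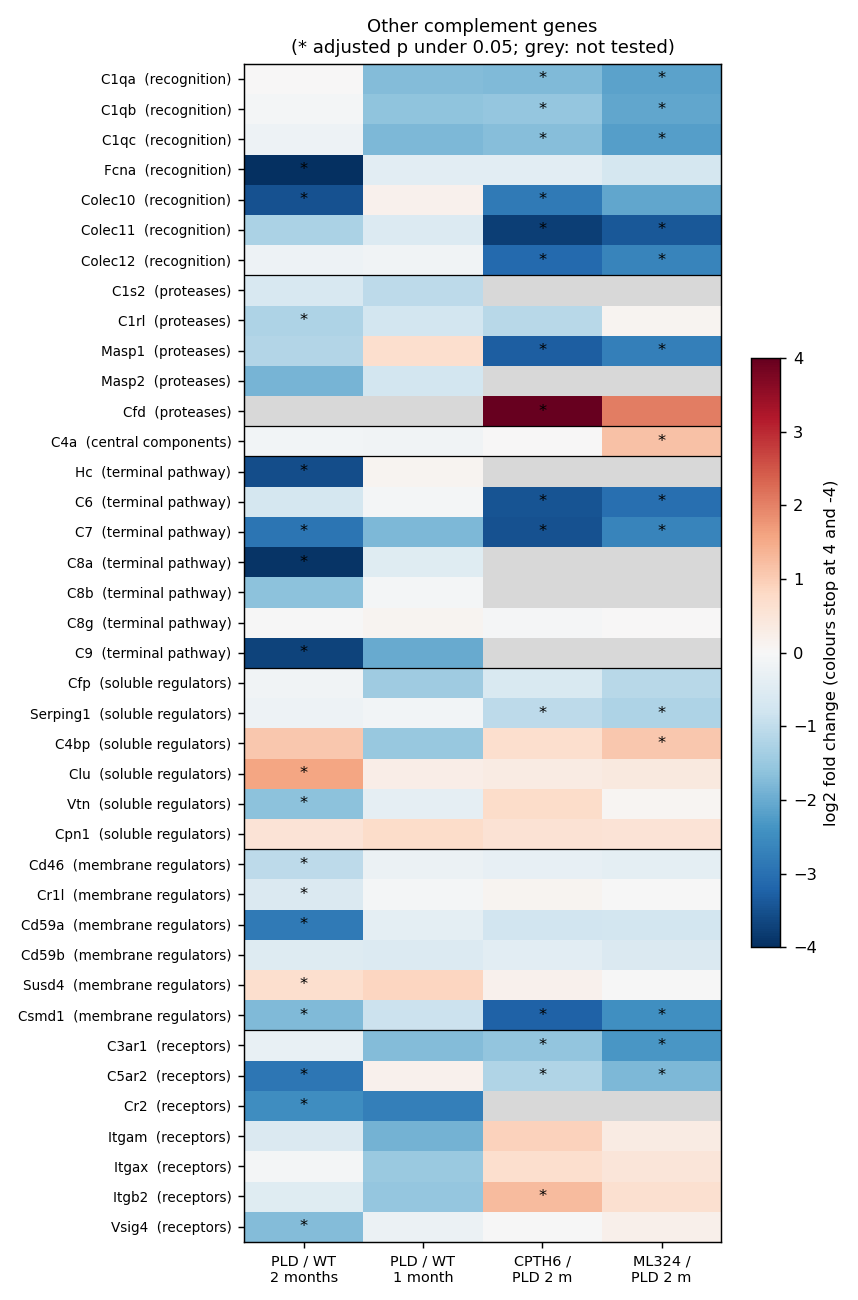
Log2 fold change (colour, stopping at 4 and -4) of the other complement genes reported here with a test in at least 1 of 4 comparisons (columns), grouped by role (rows); a star marks an adjusted p under 0.05 by edgeR and grey a gene not tested. The column for PLD at 2 months has 15 starred cells in blue and 2 in red, that for PLD at 1 month has none, and the columns for CPTH6 and ML324 have 13 and 12 in blue and 2 each in red.

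At 1 month neither C3 nor Cfb passed the test, though C3 was lower and Cfb higher in every PLD library than in every WT library. How many of all genes lack overlap is not given here, so this only describes these genes. None of the 9 members was called by edgeR, where 5.03% of the 17749 genes tested were called, 3.0% higher and 2.02% lower. DESeq2 called 0 members as well. By edgeR 3 members had an unadjusted p under 0.05 (C3, Cfb and C5ar1), as had 4297 of the 17749 genes tested. The median log2 fold change of the members was -0.41, against -0.05 over all genes. C3 had 1146, 1207 and 1903 CPM in PLD and 2261, 2068 and 2961 CPM in WT. All PLD libraries were below all WT libraries, with a log2 fold change of -0.79 ± 0.32 (adjusted p = 0.164). Cfb had 6.28, 4.93 and 4.32 CPM in PLD and 2.72, 2.57 and 4.19 CPM in WT, with all PLD libraries above WT by a narrow margin (0.69 ± 0.25, adjusted p = 0.126). C5ar1 had 12.6, 14.97 and 25.4 CPM in PLD and 86.7, 27.1 and 23.9 CPM in WT (-1.39 ± 0.54, adjusted p = 0.146). WT replicate 1 alone held the high C5ar1 value, and without it the log2 fold change was -0.56.

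The other members overlapped between genotypes at 1 month. Cd55 had 108, 66.0 and 115 CPM in PLD and 61.3, 89.2 and 32.2 CPM in WT (0.64 ± 0.38, adjusted p = 0.329). C2 had 26.0, 30.7 and 39.5 CPM in PLD and 27.0, 36.8 and 23.4 CPM in WT, and Cfi 32.1, 41.5 and 40.4 against 25.0, 20.1 and 52.4 CPM. Both log2 fold changes were smaller than their SE (0.12 ± 0.27 for C2 and 0.21 ± 0.37 for Cfi). C1ra had 113, 111 and 209 CPM in PLD and 231, 272 and 62.0 CPM in WT, C1s1 had 176, 175 and 288 CPM in PLD and 367, 397 and 80.6 CPM in WT, and C4b had 427, 475 and 956 CPM in PLD and 1010.3, 1392 and 220.3 CPM in WT. WT replicate 3, the library low in stellate cell and fibroblast markers, was the lowest of its group for all 3 genes, and its part in the differences was not tested. Without it 3 members were called: C1s1 lower (-0.86, adjusted p = 0.0260), C5ar1 lower (-1.70, adjusted p = 0.0455) and Cfb higher (0.95, adjusted p = 0.0217). Of the 39 other complement genes tested, 0 were called by edgeR and 13 had an unadjusted p under 0.05, with a median of -0.41. The C1q chains had log2 fold changes of -1.60 to -1.78 (adjusted p = 0.0710 to 0.0833), beside macrophage marker sums of 693 to 913 CPM in PLD and 918 to 1767 CPM in WT. Of the 10 macrophage markers, 1 was called lower.

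Between 1 and 2 months, Cfb rose in PLD and no other member passed the test. Its values were 8.78, 13.5 and 11.7 CPM at 2 months and 6.28, 4.93 and 4.32 CPM at 1 month, without overlap (log2 fold change 1.15 ± 0.25, adjusted p = 0.0224). The call, 1 of 9 where 9.61% of genes were called, 4.38% higher and 5.23% lower, did not hold in 5 of 6 fits that left out 1 PLD library, and held only without PLD replicate 1 at 2 months. C2 (0.88 ± 0.27, adjusted p = 0.0627) was above its 1-month values in every PLD library at 2 months and Cd55 (-1.25 ± 0.39, adjusted p = 0.0635) below. Both were called by DESeq2 and in fits of all 18 libraries or of the 6 PLD libraries alone. Cfi was also above its 1-month values in every library (0.75 ± 0.37, adjusted p = 0.201), and C1ra (-0.71 ± 0.45) and C1s1 (-0.56 ± 0.45) were below theirs. In WT none of the 9 members was called by edgeR, where 0.0507% of genes were called (0.0113% higher and 0.0394% lower), and 1 had an unadjusted p under 0.05 and was called by DESeq2. This was Cd55, with 180.1, 332 and 199.8 CPM at 2 months and 61.3, 89.2 and 32.2 CPM at 1 month (1.95 ± 0.39, adjusted p = 0.0928, or 0.000276 by DESeq2). No value overlapped, and the call passed without WT replicate 2 or 3 at 1 month (adjusted p = 0.0484 and 0.0453). Endothelial marker sums were 456 to 1197 CPM in PLD at 2 months and 1994 to 3861 CPM at 1 month, with 9 of 10 markers called lower at 2 months. In WT they were 6182 to 10982 CPM at 2 months and 1840 to 4792 CPM at 1 month, with 0 of 10 markers called, and the part of these markers in the Cd55 values was not tested. Of the other complement genes, edgeR called 3 lower with time in PLD and none higher: Cd59a (-1.45 ± 0.24), Vtn (-1.45 ± 0.32) and Fcna (-2.66 ± 0.65). The C1q chains had log2 fold changes of 1.42 to 1.51 in PLD, with overlap, and were not called (edgeR adjusted p = 0.0838 to 0.0984). In WT 0 of 39 other complement genes were called by edgeR and 5 had an unadjusted p under 0.05.

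Cd55 was the 1 member called for a difference between genotypes that changed with time. The log2 difference between PLD and WT at 2 months less that at 1 month was -3.20 ± 0.55 (adjusted p = 0.0160), Cd55 being called lower in PLD than in WT at 2 months and not called at 1 month. It was 1 of 9 members called, where 5.68% of all genes were, 2.55% higher and 3.13% lower. Without WT replicate 2 at 2 months, its highest library, the value was -2.86 and the adjusted p 0.0501. The same term was 1.25 ± 0.35 for Cfb (adjusted p = 0.0649), 1.16 ± 0.52 for Cfi (adjusted p = 0.207) and 0.95 ± 0.38 for C2 (adjusted p = 0.168). DESeq2 also called Cfb, as did the fit without WT replicate 2 at 1 month (adjusted p = 0.0115 and 0.0449). Of the 10 endothelial markers 9 were called lower for this term. Of the 39 other complement genes 5 were called, all lower: Cd59a (-2.44 ± 0.33), C5ar2 (-3.06 ± 0.47), Hc (-3.66 ± 0.78), Colec10 (-3.65 ± 0.81) and Fcna (-3.59 ± 0.88). The C1q chains had terms of 1.51 to 1.75 and were not called (edgeR adjusted p = 0.170 to 0.211).

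**Figure D5:**
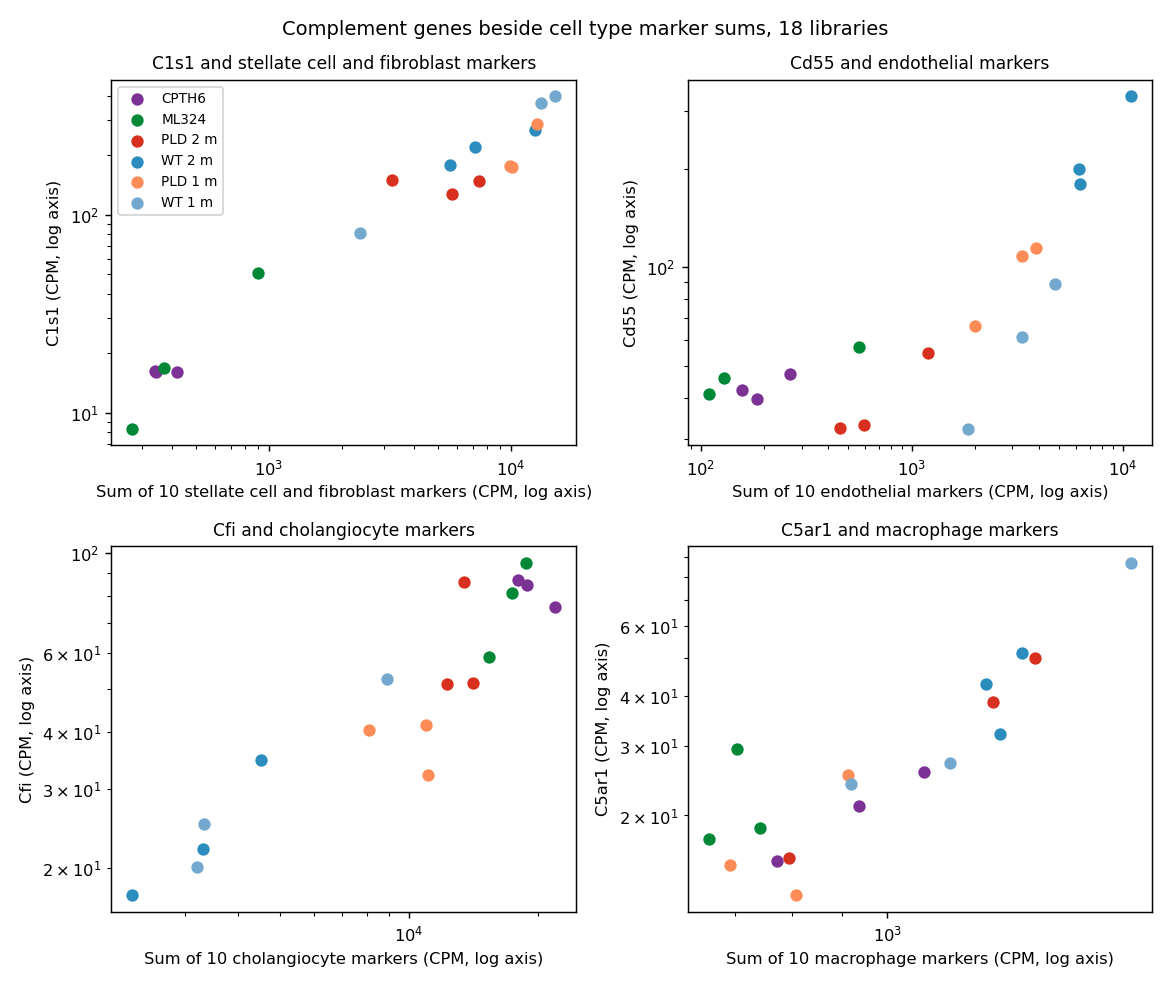
CPM of 4 complement genes (y axes) against the summed CPM of 10 markers of a cell type (x axes) in the 18 libraries, all axes logarithmic and colours marking the 6 groups. C1s1 runs from 8.31 CPM in ML324 replicate 1 to 397 CPM in WT replicate 2 at 1 month, the libraries with the lowest and the highest stellate cell and fibroblast sum; Cd55 is highest in WT replicate 2 at 2 months, which has the highest endothelial sum.

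In PLD mice given CPTH6, the C1 proteases fell to a small part of their level in untreated PLD at 2 months, and C4b and C2 were also lower. C1s1 was at 0.114 and C1ra at 0.194 of the untreated level, C4b at 0.390 and C2 at 0.632. Cfb, Cfi and Cd55, which differed between PLD and WT at 2 months, did not pass the test. In all, 4 of 9 members were called, each lower, where 23.1% of the 16502 genes tested were called, 9.39% higher and 13.7% lower. The median log2 fold change was -0.66, against -0.04 over all genes.

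C1s1, the C1 protease that cuts C4 and C2, had 16.1, 16.3 and 15.996 CPM after CPTH6, against 128, 149 and 149 CPM in untreated PLD. The CPTH6 libraries had an SD of 0.155 CPM and lay far below every untreated library (log2 fold change -3.13 ± 0.51, adjusted p = 0.00283). C1ra, the protease that activates C1s, had 14.8, 18.2 and 17.1 CPM after CPTH6 and 74.5, 90.5 and 94.8 CPM in untreated PLD (-2.37 ± 0.31, adjusted p = 0.00101). Again no libraries overlapped, and both genes were called in every alternative tried. The 10 stellate cell and fibroblast markers all fell too, with sums of 338 to 416 CPM after CPTH6 and 3221 to 7370 CPM in untreated PLD. Per 1000 CPM of those markers, C1s1 was 38.6 to 48.2 CPM after CPTH6 and 20.2 to 46.4 CPM in untreated PLD, and C1ra was 35.7 to 54.0 CPM after CPTH6 and 12.9 to 28.1 CPM in untreated PLD. Relative to these markers C1ra was higher in every CPTH6 library than in any untreated library, C1s1 overlapped, and the part of the marker change in the result was not tested.

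C4b had 337, 400.2 and 304 CPM after CPTH6 and 383, 1216 and 1076 CPM in untreated PLD, so that untreated replicate 1 lay inside the CPTH6 range (-1.36 ± 0.34, adjusted p = 0.0201). C2 had 32.7, 44.2 and 33.7 CPM after CPTH6 and 40.8, 80.3 and 54.3 CPM in untreated PLD, with overlap (-0.66 ± 0.21, adjusted p = 0.0494). Neither call held without any 1 of the 3 CPTH6 libraries or without untreated replicate 2 or 3, where C4b ran from -1.08 to -1.43 and C2 from -0.37 to -0.77. In a fit of all 18 libraries the adjusted p was 0.0820 for C4b and 0.0684 for C2, and C2 also lost its call under RLE scaling (0.0642) and with only the libraries compared (0.0869). C3 had 1532, 1818 and 1776 CPM after CPTH6, inside the untreated range of 934 to 2349 CPM (0.01 ± 0.27, adjusted p = 0.977). Cfb had 16.3, 9.40 and 16.4 CPM and Cfi 85.1, 75.7 and 87.1 CPM after CPTH6, and both overlapped their untreated values (0.32 ± 0.26 and 0.40 ± 0.23). Cd55 had 42.4, 47.2 and 39.7 CPM after CPTH6 and 33.0, 54.9 and 32.3 CPM in untreated PLD (0.11 ± 0.20, adjusted p = 0.732), with overlap. C5ar1 had 15.4, 25.7 and 21.1 CPM after CPTH6 and 49.9, 15.7 and 38.6 CPM in untreated PLD (-0.74 ± 0.38, adjusted p = 0.188), and was called lower without untreated replicate 2 (-1.10, adjusted p = 0.0174).

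After ML324 the C1 proteases and C2 were lower than in the same untreated libraries. C1s1 was at 0.184, C1ra at 0.281 and C2 at 0.620 of the untreated level, and no member was called higher. These 3 of 9 were all lower, where 19.4% of the 16502 genes were called, 7.96% higher and 11.4% lower. The median of the members was -0.31, against -0.01 over all genes. Because CPTH6 and ML324 were both set against the same 3 untreated libraries, their lists are not independent.

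C1s1 had 8.31, 51.0 and 16.8 CPM after ML324 and C1ra 13.6, 37.9 and 19.2 CPM, below every untreated library (-2.44 ± 0.50, adjusted p = 0.00977, and -1.83 ± 0.30, adjusted p = 0.00392). ML324 replicate 2 was highest for both genes and also had the highest stellate cell and fibroblast sum of its group, 906 CPM, against 273 and 370.3 CPM in the others. Without it the log2 fold change of C1s1 was -3.44 and that of C1ra -2.34. Those 10 markers all fell, and per 1000 CPM of them C1s1 was 30.4 to 56.3 CPM after ML324 and 20.2 to 46.4 CPM in untreated PLD, with overlap. C1ra was 41.9 to 51.9 CPM after ML324 and 12.9 to 28.1 CPM in untreated PLD on the same scale, without overlap. C2 had 32.7, 35.0 and 37.2 CPM after ML324 and 40.8, 80.3 and 54.3 CPM in untreated PLD, without overlap (-0.69 ± 0.21, adjusted p = 0.0490). Its call did not hold under RLE scaling (adjusted p = 0.0569), with all 18 libraries (0.0527), with only the libraries compared (0.0940), or without untreated replicate 2 (-0.40) or 3 or any 1 ML324 library. C4b had 736, 596 and 745 CPM (-0.31 ± 0.34), C3 1894, 1933 and 2132 CPM (0.28 ± 0.27) and Cfi 81.6, 58.8 and 94.9 CPM (0.37 ± 0.23) after ML324, each overlapping untreated PLD. C4b was called lower without untreated replicate 1 (-0.67, adjusted p = 0.0266). Cfb had 16.7, 13.1 and 20.3 CPM after ML324 (0.61 ± 0.26, adjusted p = 0.135), and only its lowest value lay within the untreated range. Cd55 had 41.0, 57.0 and 46.1 CPM (0.31 ± 0.20) and C5ar1 18.6, 29.4 and 17.4 CPM (-0.63 ± 0.38), and neither was called. Without untreated replicate 2 both were, Cd55 higher (0.60, adjusted p = 0.0210) and C5ar1 lower (-0.98, adjusted p = 0.0326).

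Of the 46 other complement genes 33 were tested in the treated libraries. Against untreated PLD, 14 were called lower and 2 higher after CPTH6 (median log2 fold change -0.61), and 13 lower and 2 higher after ML324 (median -0.71). Over all genes tested 13.7% were called lower and 9.39% higher after CPTH6, and 11.4% lower and 7.96% higher after ML324. Recognition molecules were called lower in 6 of 7 cases after CPTH6 and in 5 of 7 after ML324. Colec12, a scavenger receptor of the collectin family, averaged 6.57 ± 0.217 CPM after CPTH6, 8.77 ± 4.54 CPM after ML324 and 56.7 ± 6.09 CPM in untreated PLD. The soluble collectin Colec11 averaged 5.37 ± 0.981, 6.86 ± 5.35 and 73.9 ± 4.50 CPM in the same 3 groups. Masp1, a protease of the lectin pathway, averaged 16.4 ± 3.06 CPM after CPTH6, 23.8 ± 12.2 CPM after ML324 and 164 ± 40.4 CPM in untreated PLD. For these 3 genes every treated library was below every untreated one, and the log2 fold changes ran from -3.10 to -3.78 after CPTH6 and from -2.65 to -3.39 after ML324. Against untreated PLD, 15 of the 46 genes lay below and 3 above without overlap after CPTH6, and as many after ML324. C1 inhibitor (Serping1) had log2 fold changes of -1.06 ± 0.20 after CPTH6 and -1.22 ± 0.20 after ML324.

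The C1q chains were also called lower after both compounds. C1qa averaged 49.0 ± 6.54 CPM after CPTH6, 36.7 ± 12.7 CPM after ML324 and 169 ± 79.9 CPM in untreated PLD. Over the 3 chains the log2 fold changes were -1.56 to -1.78 after CPTH6 and -2.06 to -2.22 after ML324. C3ar1, the C3a receptor of myeloid cells, followed with -1.58 ± 0.37 and -2.31 ± 0.38. Macrophage marker sums were 772 to 1088 CPM after CPTH6, 659 to 743 CPM after ML324 and 796 to 1410 CPM in untreated PLD, and 3 and 4 of 9 markers tested were called lower. The median log2 CPM of these markers was 2.67 to 2.84 after CPTH6 and 1.52 to 3.23 after ML324. In untreated PLD it was 3.66 to 5.31, above every treated library, and the part of this change in the C1q values was not tested. The few genes called higher were named after their values were seen. After CPTH6 they were Cfd (1.80 ± 1.52 CPM, against 0.106 ± 0.143 CPM in untreated PLD, with overlap) and Itgb2, the beta chain of leukocyte complement receptors (48.3 CPM on average, against 20.2 CPM in untreated PLD). Neutrophil marker sums were 116 to 1147 CPM after CPTH6, against 21.1 to 69.2 CPM in untreated PLD, with 6 of 10 markers called higher. After ML324 the genes called higher were C4bp, which encodes the C4b-binding protein (46.1 ± 4.97 CPM, against 22.8 ± 9.80 CPM in untreated PLD), and C4a, the copy of C4b (5.25 ± 0.0202 CPM, against 2.43 ± 0.496 CPM in untreated PLD). C1s2 and C1rb were too low to test in these libraries, as was Cd55b.

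Between the compounds, none of the 9 members was called by edgeR, and 0% of the 15989 genes tested were, with 2008 of those genes and 1 member at an unadjusted p under 0.05. That member was C4b, which was also called by DESeq2 (adjusted p = 1.4e-08). It had 337, 400.2 and 304 CPM after CPTH6, against 736, 596 and 745 CPM after ML324, without overlap (log2 fold change -1.05 ± 0.14, adjusted p = 0.234 by edgeR). C3 was also lower in every CPTH6 library (1532, 1818 and 1776 CPM) than in every ML324 library (1894, 1933 and 2132 CPM), at -0.26 ± 0.12 (adjusted p = 0.409). The remaining 7 members overlapped, with log2 fold changes of -0.69 for C1s1 to 0.03 for Cfi. C4a, with 2.42 ± 0.621 CPM after CPTH6 and 5.25 ± 0.0202 CPM after ML324, differed in the same direction as C4b (-1.15 ± 0.27, adjusted p = 0.245). Of 31 other complement genes tested 0 were called and 6 had an unadjusted p under 0.05.

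Patterns over the 18 libraries were compared as the mean absolute difference in log2 CPM after each gene was centred on its own mean, a description over libraries that share groups and depth. Among the 9 members, C1ra and C1s1 were most alike (0.31), followed by Cfb and Cfi (0.43) and by C3 and C5ar1 (0.44). C5ar1 was no nearer to C3 than the median gene with a mean of at least 10 CPM (0.44). The median gene differed from C5ar1 by 0.67. Cfb and C1s1 were least alike (2.28). Of 9926 genes with a mean of at least 10 CPM, those nearest to Cfb were Plekhg6 (0.23), Gpat3 (0.24) and Tbc1d2 (0.24), where the median gene differed from Cfb by 0.93. Those nearest to Cd55 were Sh3tc1 (0.26), the endothelial receptor gene Flt4 (0.26) and Ripply3 (0.29), with a median of 0.86. Those nearest to C5ar1 were Pld4 (0.24), Nckap1l (0.25) and Lcp2 (0.27), with a median of 0.67. For C3 they were Gsap (0.20), Med24 (0.22) and Rogdi (0.22), with a median of 0.44.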

How the data were processed

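PolyA RNA of 18 libraries was sequenced. The submitters' processing notes name mm10 and STAR 2.7.4a. Per the file headers the deposited values are whole-number counts of read pairs per gene, made by featureCounts 1.6.0 with the GENCODE M25 annotation and default settings, which ignore strand and leave out reads fitting several genes. The members and lists were chosen with earlier results of these data known. Differences were tested by edgeR 4.0.16, run in R 4.3.3, on these counts (filterByExpr, TMM scaling, quasi-likelihood test, Benjamini-Hochberg adjustment over all genes tested, called at 0.05), and the test was tried on simulated counts. One fit held the 12 untreated libraries (8 residual degrees of freedom), one CPTH6, ML324 and PLD at 2 months (6) and one both compounds (4). The SE of a log2 fold change was its size over the root of the F statistic. CPM used TMM-scaled totals, and log2 CPM added a prior count of 2. All 9 members passed the filter in every fit. Named besides them were, per comparison, up to 6 called genes of the list of 46 other complement genes with the smallest adjusted p, the copies C4a, C1s2, C1rb and Cd55b, the C1q chains, and the 3 genes most alike to C3, Cfb, Cd55 and C5ar1. Alternatives were RLE scaling, no filter, DESeq2 1.42.0, other sets of libraries in the fit, a replicate block and leaving out each library. The markers of lymphocytes, hepatocytes and neutrophils were summed in the same way. Hepatocyte sums ran from 502 to 5973 CPM and lymphocyte sums from 2.18 to 12.1 CPM. A gene of the list of other complement genes is counted in the totals but not reported here by name or in the plot of that list.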

Additional observations from a re-analysis of the deposited data

Results flagged for a closer look

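For 6 complement genes the difference between PLD and WT itself differed between 2 months and 1 month, by the interaction term of the edgeR fit. The log2 difference at 2 months less that at 1 month was -3.20 for Cd55, -3.59 for Fcna, -3.65 for Colec10, -3.66 for Hc, -2.44 for Cd59a and -3.06 for C5ar2. In each case the value was lower in PLD than in WT at 2 months, with no overlap between the genotypes, and not called at 1 month. How many of all genes lack overlap at 2 months is not given here. Of the 10 endothelial markers 9 had a called negative term in the same fit, and their part in these 6 values was not tested. The Cd55 value was -2.86 (adjusted p = 0.0501) without WT replicate 2 at 2 months. Dixon's test of a single distant library was not used on these groups of 3 libraries.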

How the results depend on the processing

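Without a filter on low counts the number of members called was 2 between genotypes at 1 month and 5 at 2 months, 6 over time in PLD and 1 in WT, 3 for the interaction, 6 for CPTH6, 5 for ML324 and 1 between the compounds. With DESeq2 it was 3 for time in PLD and 1 in WT, 2 for the interaction and 1 between the compounds. A fit of all 18 libraries gave 3 for time in PLD, 1 in WT and 2 for CPTH6, and a fit of only the libraries compared gave 6 for PLD against WT at 2 months and 3 for time in PLD. Leaving out 1 library at a time gave 0 to 3 members at 1 month, 3 to 4 at 2 months, 0 to 1 for time in PLD and in WT, 0 to 2 for the interaction, 2 to 4 for CPTH6 and for ML324, and 0 to 0 between the compounds. Of 900 values of single members under an alternative, 795 stayed on their side of the threshold with the same direction, 31 lost and 39 gained a call, and 35 changed sign. All sign changes came from leaving out 1 library and from values not called. Their log2 ranges were -0.060 to 0.32 (C2) and -0.064 to 0.74 (Cfi) at 1 month and -0.58 to 0.13 (C5ar1) at 2 months. For time they were -0.023 to 0.58 (C3) in PLD, and in WT -0.29 to 0.024 (C3), -0.0087 to 0.94 (C4b), -0.27 to 0.11 (C2), -0.27 to 0.15 (Cfb), -0.63 to 0.13 (C1ra), -0.75 to 0.11 (Cfi) and -0.45 to 0.68 (C5ar1). For the interaction they were -0.38 to 0.56 (C4b) and -0.50 to 0.24 (C1s1). For CPTH6 they were -0.28 to 0.33 (C3) and -0.021 to 0.40 (Cd55), for ML324 -0.020 to 0.59 (C3), and between the compounds -0.10 to 0.10 (C2), -1.10 to 0.31 (C1s1), -0.14 to 0.19 (Cfi) and -0.28 to 0.15 (C5ar1). The cause of these moves was not tested.

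Over all genes, 892 calls at 1 month became 29 with only the libraries compared, 599 with a replicate block, 1733 with all 18 libraries, 2194 without a filter and 2477 with DESeq2, and 99 to 3485 leaving out 1 library. The 1706 calls for time in PLD became 965 with the block, 2818 without a filter, 3480 with DESeq2 and 3811 with only the PLD libraries, and 135 to 644 leaving out 1 library. The 9 calls for time in WT became 0 with the block or only the WT libraries, 135 with all 18 libraries, 827 with DESeq2 and 1224 without a filter, and 0 to 389 leaving out 1 library. The 1008 of the interaction became 426 with the block, 1561 with all 18 libraries, 2282 without a filter and 2343 with DESeq2, and 100 to 1413 leaving out 1 library. The 0 between the compounds became 1 with the block, 232 without a filter and 299 with DESeq2, and 0 to 3 leaving out 1 library. A fit of only the libraries compared is already the design used between the compounds and for the interaction, so neither was run again. The 3818 calls for CPTH6 were 2490 and the 3203 for ML324 1939 at the lowest, leaving out 1 library. Replicate numbers gave no clear pairing of the libraries. In 0 of 15 pairs of groups were the correlations of all same-numbered libraries over 0.1 (range -0.54 to 0.54). In some pairs all were positive but weak, such as PLD at 2 months with ML324 (0.094 to 0.126). With 3 libraries per group, these values cannot exclude a pairing. With the replicate number as a block 0, 4, 1, 0, 1, 4, 3 and 0 members were called, for 1 month, 2 months, time within PLD and within WT, interaction, CPTH6, ML324 and between the compounds in that order, as without it. Each of the 9 members had at least 53 counts in every library, and each group held 3 libraries.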

Other observations

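The spread of some members was smaller when set against the sum of a marker list, given here as values only. C1s1 spanned 47.8-fold over the 18 libraries, while C1s1 per 1000 CPM of stellate cell and fibroblast markers ran from 17.3 to 56.3 CPM, a span of 3.26-fold. C1ra spanned 20.1-fold and, per 1000 CPM of the same markers, 4.93-fold. Cfi spanned 5.46-fold and, per 1000 CPM of cholangiocyte markers, 2.65-fold, and Cfb 7.92-fold and 3.52-fold. C5ar1 spanned 6.90-fold and, per 1000 CPM of macrophage markers, 3.16-fold. Cd55 was the exception, since it spanned 10.3-fold and, per 1000 CPM of endothelial markers, 21.6-fold. That ratio was 178 to 272 CPM after CPTH6, 102 to 377 after ML324, 45.9 to 70.9 in PLD and 28.8 to 32.3 in WT at 2 months, and 29.7 to 33.1 in PLD and 17.5 to 18.6 in WT at 1 month. At each month every PLD library had more Cd55 per endothelial marker CPM than every WT library, while its CPM was lower in PLD at 2 months. The ratio was highest in ML324 replicate 1, which had the lowest endothelial sum (109 CPM) and 41.0 CPM of Cd55. It is not a level per endothelial cell. Markers identify no cell, and these lists were chosen with earlier results of these data known.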
